A study of Mus musculus with 40 samples.

Results

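Transcripts of 9 enzymes that supply glycerol-3-phosphate and assemble it into triglyceride were followed in mouse brown adipose tissue (BAT), out of 20295 RefSeq genes counted. The genes were chosen by symbol for their place in the pathway: *Gyk*, *Gpd1* and *Pck1* for glycerol-3-phosphate, *Gpam* and *Agpat2* for its acylation, *Lpin1* and *Lpin2* for the phosphatase step, and *Dgat1* and *Dgat2* for the last acylation. They were chosen with earlier results of these data known. RNA was sequenced from BAT of 40 male mice kept at 29 °C, 5 in each of 8 groups. The first cohort was 13 to 19 weeks old and compared C-3BO mice with control littermates, on chow or after 7 days of high fat diet (HFD, 60 kcal% fat). C-3BO mice carry a *Gpr3* transgene behind a CAG promoter and a floxed stop cassette (*Gpr3* TTG) together with *Ucp1*-Cre, so that the receptor GPR3 is overexpressed where the *Ucp1* promoter has been active. Their controls carried either the *Gpr3* TTG allele without Cre or Cre without the allele, and the labels do not say which mouse carried which. The second cohort comprised 15-week-old control littermates of an inducible *Gpr3* line, without overexpression, which received daily injections of saline or of the β3-adrenergic agonist CL-316,243 (CL, 1 mg/kg) for 9 days, on chow or with HFD for the last 7 of them. Tissue was taken the day after the last injection. Replicates are separate mice.

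Triglyceride is built on glycerol-3-phosphate, which adipocytes make from glucose, from smaller precursors or by phosphorylating glycerol. Acyl groups are added in turn, a phosphate is removed to give diacylglycerol, and a last acyl group completes the molecule. Glycerol kinase is low in white fat, which therefore releases the glycerol of its lipolysis, whereas brown fat can phosphorylate glycerol and put it back into triglyceride. GPR3 and the β3-adrenergic receptor both couple to Gs and raise cAMP, the signal that starts lipolysis in brown adipocytes.

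*Gyk*, *Agpat2* and *Pck1* had the widest ranges of group means among the 9 genes, and their promoter windows are shown for that reason. Each window runs from 250 bases before to 50 bases after the annotated start in RefSeq (GRCm38.p6), and windows were supplied for 6 of the 9 genes. *Gyk* is listed there under its current symbol, *Gk*. The windows are chrX:85776770-85777069 on the minus strand for *Gyk*, chr2:173152823-173153122 on the plus strand for *Pck1* and chr2:26604368-26604667 on the minus strand for *Agpat2*. Each is read from 5′ to 3′ along the gene. Capitals mark matches to the letters searched on both strands.
Gyk: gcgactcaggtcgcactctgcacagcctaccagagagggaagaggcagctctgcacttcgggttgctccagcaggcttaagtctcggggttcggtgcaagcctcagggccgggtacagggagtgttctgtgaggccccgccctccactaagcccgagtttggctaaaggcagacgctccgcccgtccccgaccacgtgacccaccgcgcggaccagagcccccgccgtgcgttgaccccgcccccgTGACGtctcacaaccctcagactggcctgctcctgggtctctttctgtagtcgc
Pck1: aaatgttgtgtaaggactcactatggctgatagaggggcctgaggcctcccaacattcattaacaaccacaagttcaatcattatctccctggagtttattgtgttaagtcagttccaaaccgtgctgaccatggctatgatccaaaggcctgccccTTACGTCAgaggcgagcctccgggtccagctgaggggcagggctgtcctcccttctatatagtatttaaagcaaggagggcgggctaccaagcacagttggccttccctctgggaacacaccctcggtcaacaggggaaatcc
Agpat2: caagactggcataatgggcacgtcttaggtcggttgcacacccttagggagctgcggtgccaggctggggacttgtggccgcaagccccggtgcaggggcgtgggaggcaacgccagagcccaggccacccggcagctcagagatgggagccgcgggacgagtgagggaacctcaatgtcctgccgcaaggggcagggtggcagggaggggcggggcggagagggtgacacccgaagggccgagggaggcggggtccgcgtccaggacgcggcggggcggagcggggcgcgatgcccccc
The *Pck1* window holds TTACGTCA, a variant of the cAMP response element, which begins 93 bases before the start. These letters occur in 0.499% of the 32851 promoter windows supplied. The *Gyk* window holds only the shorter TGACG, beginning 4 bases before the start, which 20.8% of windows contain and which also forms part of TTACGTCA on the other strand. No match to any motif searched was found in the *Agpat2* window. The other motifs were TGACGTCA, in 1.79% of windows, the nuclear receptor letters AGGTCA, in 16.3%, their direct repeat DR1, with up to 1 mismatch in each copy, in 2.4%, CCAAT, in 37.4%, and TATAAA, in 13.6%. A match describes the letters of the window and was not tested for binding.

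The libraries held between 849126 and 15260516 counts on the listed genes. Levels are given as CPM, counts relative to a library total that was multiplied by its TMM factor in edgeR, and levels of different genes are compared only per kilobase (kb) of exon. *Gpr3* stood at 375 ± 82.5 CPM in chow C-3BO mice and at 792 ± 95.7 CPM in HFD C-3BO mice (SD, n = 5), against at most 2.11 CPM on average in each of the other 6 groups. Brown adipocyte markers were present in all groups, with 11 of 11 counted. In 12 libraries the liver transcript *Alb* lay between 62.1 and 294 CPM, and in the other 28 it did not exceed 1.62 CPM. All 10 injected mice on HFD belonged to these 12, together with HFD C-3BO replicates 4 and 5, and the epididymal transcript *Lcn8* was counted in the same groups alone. In the injected mice this set of libraries cannot be told apart from the diet. The summed level of 20 liver genes ran from 335 to 2354 CPM over all libraries, and of the 8 pairs of groups compared for treatment or diet it separated CL from saline mice on HFD alone. That sum did not follow *Alb*. It was 985 to 2354 CPM in chow saline mice, where *Alb* did not exceed 0.216 CPM. In those mice 9 of the 20 genes were at 0 in every library. The summed level of 12 skeletal muscle genes was 968 to 11503 CPM in chow control mice, 481 to 4621 CPM in chow C-3BO mice and 6.41 to 271 CPM in HFD control mice. Whole tissue was sequenced, so a change in the number of cells of a type and a change in RNA per cell cannot be told apart.

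The 9 transcripts spanned a wide range of abundance in the BAT of chow control mice. *Gpd1* stood at 2477 ± 378 CPM per kb (SD, n = 5), followed by *Dgat2* at 1107 ± 144 and *Pck1* at 987 ± 269 CPM per kb, a gap smaller than their SDs. *Agpat2* followed at 587 ± 108 CPM per kb, *Lpin1* at 153 ± 12.01, *Dgat1* at 108 ± 7.62 and *Gpam* at 68.0 ± 7.75 CPM per kb. *Gyk* was far lower at 12.1 ± 1.04 CPM per kb, and *Lpin2* was the lowest at 3.08 ± 0.304 CPM per kb. All 9 genes passed the filter on low counts. Single libraries held from 9 counts of *Lpin2* to 195036 counts of *Gpd1*. Across the 8 groups, mean *Gyk* CPM spanned 10.1-fold, *Agpat2* 5.91-fold and *Pck1* 3.34-fold, whereas *Lpin1* spanned 1.2-fold.

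**Figure D1:**
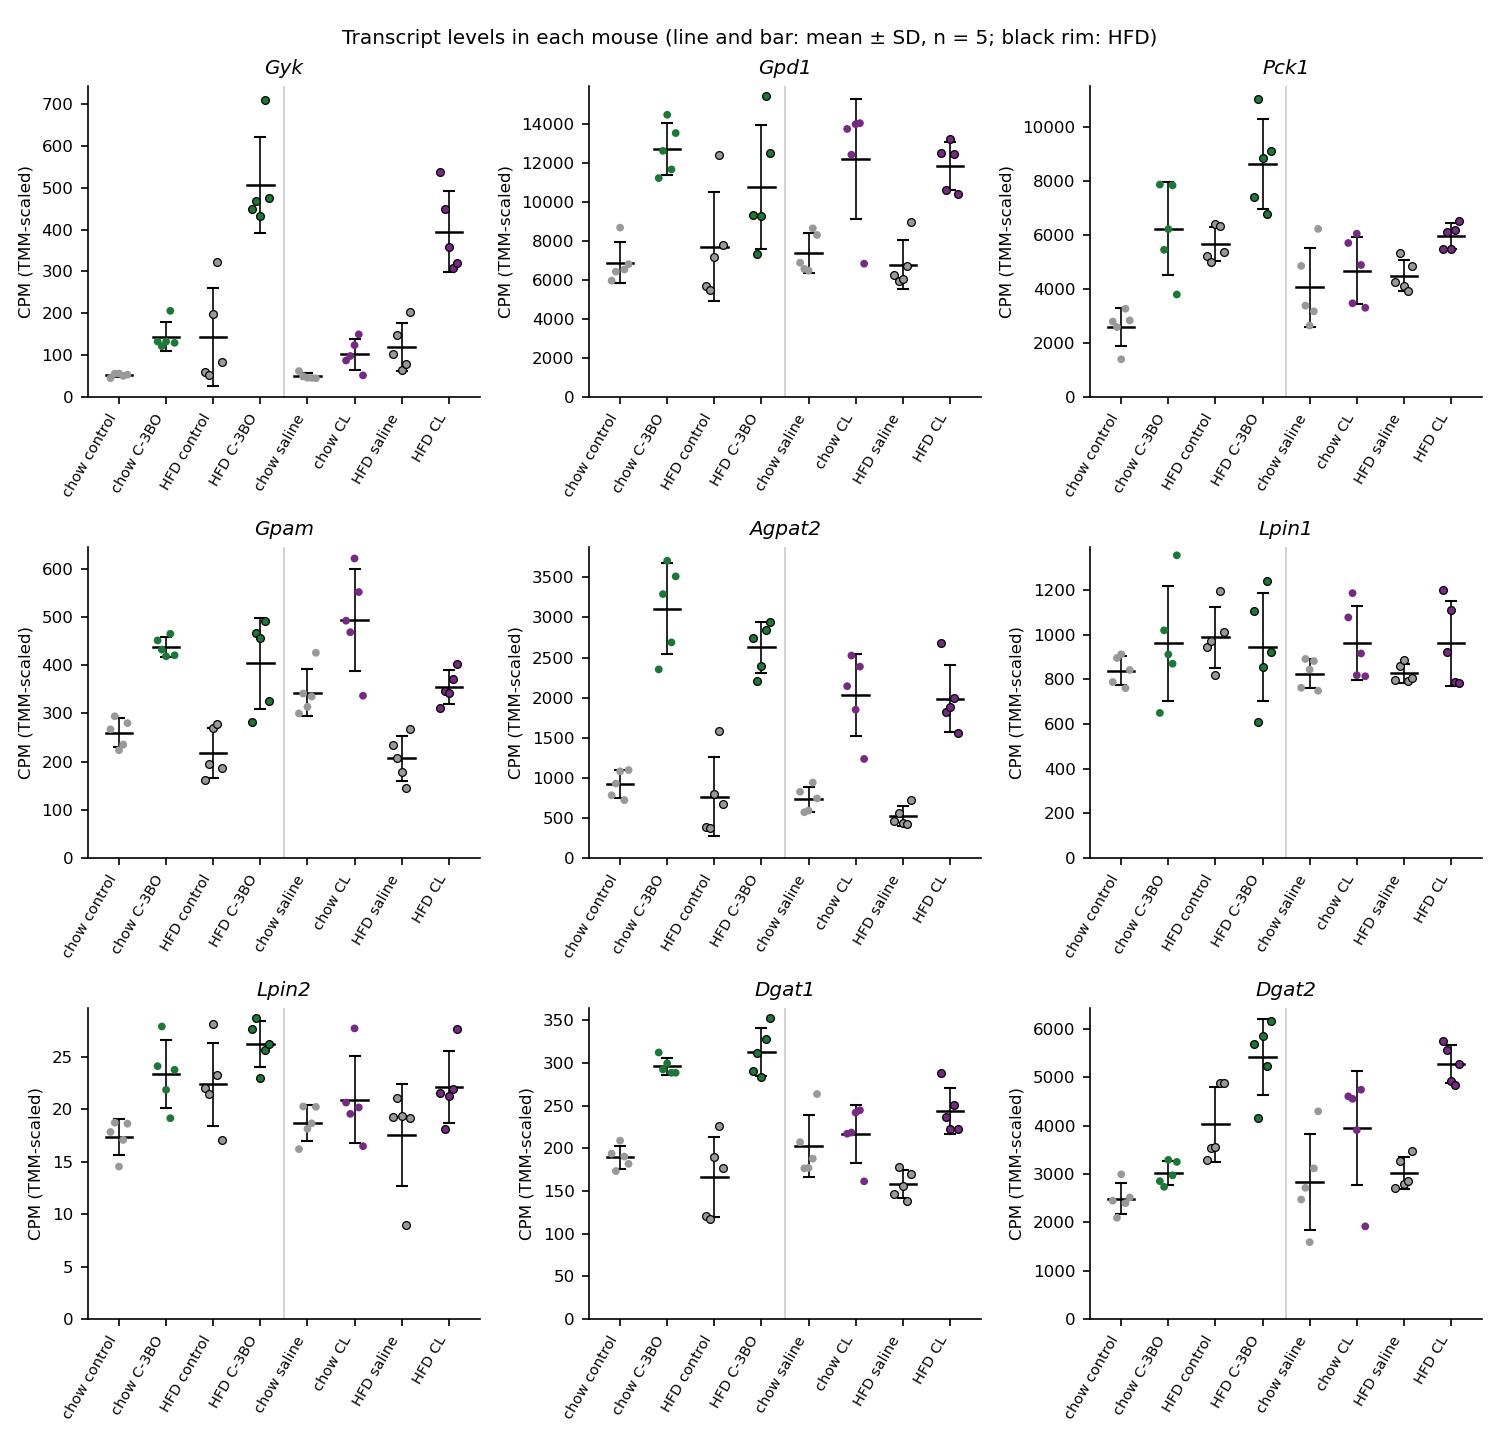
Level of each of the 9 transcripts in each mouse, in CPM scaled by TMM factors on linear axes that start at 0, with the mean and SD of 5 mice per group. The vertical line separates the C-3BO cohort from the injected cohort, green and purple points are C-3BO and CL mice, grey points are their controls and black rims mark HFD. *Gyk* reached its highest group mean, 507 CPM, in HFD C-3BO mice, while *Lpin1* group means stayed between 825 and 987 CPM.

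Constitutive *Gpr3* overexpression on chow was accompanied by higher transcript levels of 7 of the 9 enzymes in BAT and lower levels of none. A transcript was called at an adjusted p under 0.05 in edgeR's quasi-likelihood test over 13277 genes, with Benjamini-Hochberg adjustment and no limit on the fold. Among all tested genes, 15.8% were called higher and 15.9% lower in this comparison. The median log2 fold change of the 9 transcripts was 0.75, and that of all tested genes was -0.03. All 5 C-3BO mice lay above all 5 controls for 7 of the 9 transcripts, and 10.5% of tested genes had all C-3BO mice above all controls. As the members were chosen with earlier results of these data known, these counts describe the list and do not test it. *Agpat2*, *Gyk* and *Pck1* rose by more than 1 on the log2 scale, and *Lpin1* and *Dgat2* did not pass the test. Summed, 11 brown adipocyte genes stood at 12900 to 17768 CPM in chow control and 20083 to 29061 CPM in chow C-3BO mice, without overlap. Of these genes, *Ucp1* had means of 1239 and 6433 CPM and *Fabp4* of 6598 and 9209 CPM in control and C-3BO mice. Means of *Adipoq* (1377 and 1076 CPM), *Pparg* (388 and 328 CPM) and *Zic1* (16.0 and 13.5 CPM) were lower in C-3BO mice. Those of the other genes were higher. The summed muscle level given above had medians of 8684 CPM in control and 1834 CPM in C-3BO mice on chow, with overlap. The part of either list in these results was not tested.

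With HFD, 6 of the 9 transcripts were higher in C-3BO than in control mice and none was lower, against 19.3% of all tested genes called higher and 15.5% called lower. All C-3BO mice lay above all controls for 5 of the 9, against 11.4% of tested genes. Without replicates 4 and 5 of HFD C-3BO, *Gpd1* was no longer called, and its log2 fold change moved from 0.48 to 0.16. The other 5 calls were kept. Tissue marker lists moved with this comparison as well. The summed level of the brown adipocyte genes was 15049 to 28399 CPM in HFD control and 30161 to 34581 CPM in HFD C-3BO mice, and that of 6 white adipocyte genes was 266 to 1185 CPM and 55.4 to 323 CPM. That of 6 endothelial genes was 1458 to 1963 CPM in HFD control and 1186 to 1398 CPM in HFD C-3BO mice, without overlap. Among the brown adipocyte genes, mean *Ucp1* was 4903 CPM in HFD control and 14019 CPM in HFD C-3BO mice. Means of *Pparg*, *Prdm16*, *Adipoq* and *Plin1* were lower in C-3BO mice, and those of the other brown adipocyte genes were higher. None of the genes in these lists was at 0 in all mice of a group, and their part in the result was not tested.

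CL raised 4 of the 9 transcripts on chow, *Gyk*, *Gpd1*, *Gpam* and *Agpat2*, where 9.16% of tested genes were called higher and 6.13% lower. All CL mice lay above all saline mice for *Agpat2* alone, against 5.88% of tested genes, and replicate 5 of the chow CL mice lay within or below the saline range for the other members. The count fell to 2 without chow saline replicate 3 or chow CL replicate 3 or 4. In chow CL replicate 5 *Ucp1* was 1644.5 CPM, within the 1267 to 1865 CPM of chow saline mice. The other chow CL mice had *Ucp1* at 5943 to 8987 CPM. After HFD, CL raised 6 of the 9, the same 4 and both DGAT transcripts, against a background of 12.7% higher and 10.8% lower. All CL mice lay above all saline mice for 7 of the 9 on HFD, against 9.68% of tested genes. No member was lower in any of the 4 treatment comparisons. All 10 libraries of CL and saline mice on HFD held liver transcripts, with *Alb* at 97.2 to 191 CPM and 62.1 to 170 CPM. The summed level of 8 macrophage genes was 139 to 452 CPM with CL and 333 to 764 CPM with saline on HFD, with overlap. Other lists separated these groups. The liver genes summed to 673 to 1033 CPM with CL and 1516 to 2133 CPM with saline. *Alb* went the other way, with medians of 114 CPM with CL and 74.8 CPM with saline. The brown adipocyte genes summed to 22438 to 28407 CPM and 14703 to 17796 CPM, and the endothelial genes to 1314 to 1856 CPM and 1183 to 1289.6 CPM. Mean *Ucp1* was 9704 CPM with CL and 2909 CPM with saline. *Adipoq*, *Pparg*, *Plin1* and *Ppargc1a* had lower means with CL, and the other brown adipocyte genes had higher ones. The part of these lists in the result was not tested.

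**Figure D2:**
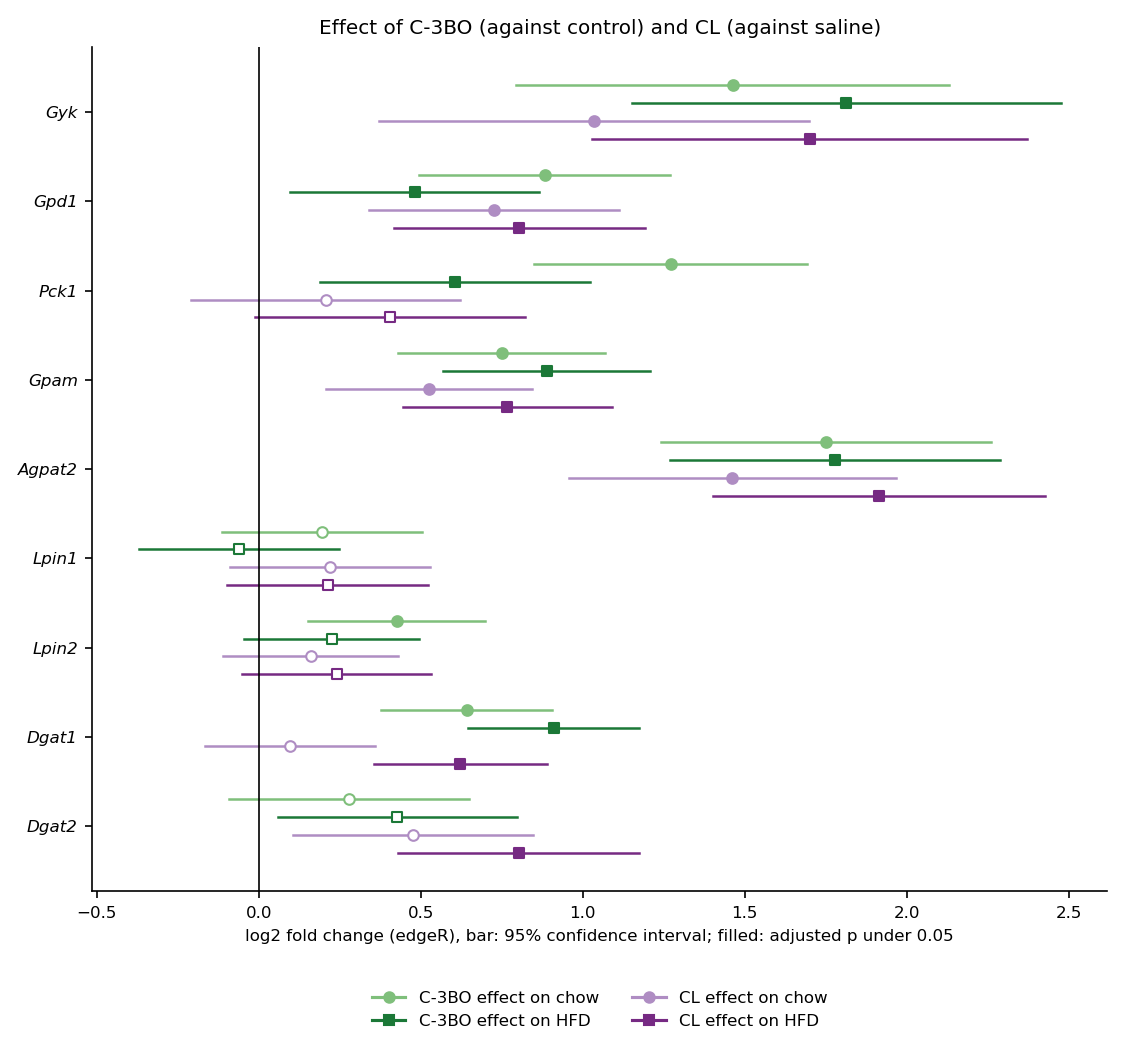
Log2 fold changes of the 9 transcripts in C-3BO against control mice and in CL against saline mice on chow (circles) and HFD (squares), with 95% confidence intervals from edgeR and filled symbols for an adjusted p under 0.05. *Gyk* and *Agpat2* lie between 1.04 and 1.91 in all 4 comparisons, and *Lpin1* lies between -0.06 and 0.22 with open symbols throughout.

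*Gyk* (chromosome X, 82947276 to 83022158, minus strand, mm9) encodes glycerol kinase, which phosphorylates free glycerol. In chow control mice it was 45.5, 56.1, 56.4, 50.8 and 53.8 CPM in replicates 1 to 5, and in chow C-3BO mice it was 133, 122, 133, 206 and 130 CPM. Every C-3BO mouse lay above every control, with replicate 4 well above the other 4. The log2 fold change was 1.46 (SE 0.33, edgeR adjusted p = 0.00079). In HFD control mice *Gyk* was 59.2, 53.9, 198, 323 and 84.8 CPM, with mice far apart, and in HFD C-3BO mice it was 448, 469, 432, 708 and 476 CPM. The lowest C-3BO mouse was therefore above the highest control. The log2 fold change was 1.81 (SE 0.33, edgeR adjusted p = 3.8e-05). The spread in HFD control mice was shared by other transcripts. *Ucp1*, the uncoupling protein of brown fat, was 2573, 2701, 5255, 9443 and 4544 CPM in the same 5 mice, with replicate 4 highest for *Ucp1*, *Gyk*, *Gpd1*, *Gpam*, *Agpat2*, *Lpin1*, *Dgat1* and *Dgat2*.

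In the injected cohort *Gyk* was 62.4, 49.9, 46.5, 46.2 and 45.2 CPM with saline on chow and 87.5, 98.3, 124, 150 and 52.1 CPM with CL on chow. The saline range was exceeded by 4 CL mice, and replicate 5 fell inside it. The log2 fold change was 1.04 (SE 0.33, edgeR adjusted p = 0.0267), and the call was lost without chow saline replicate 2 or 3 or chow CL replicate 3 or 4, with log2 fold changes between 0.86 and 1.02. After HFD *Gyk* was 103, 147, 64.8, 78.2 and 204 CPM with saline and 537, 448, 359, 308 and 320 CPM with CL. These groups did not overlap, and the log2 fold change was 1.7 (SE 0.33, edgeR adjusted p = 0.000219). *Gyk* counts carry limits of their own. *Gykl1*, an intronless relative, was listed at 0 counts in all 40 libraries. How closely its sequence matches *Gyk* was not checked, and any reads that match both could not be assigned from these counts. Exons of *Gyk* also share 84 bases with the antisense gene *Gm14764* in GENCODE M1, and without strand those reads cannot be told apart.

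*Gpd1* (chromosome 15, 99548024 to 99555438, plus strand, mm9) encodes cytosolic glycerol-3-phosphate dehydrogenase, which makes glycerol-3-phosphate from a glycolytic intermediate. It was 5979, 6439, 8698, 6549 and 6824 CPM in chow control mice and 11239, 12636, 14488, 11685 and 13550.1 CPM in chow C-3BO mice. The groups did not overlap, and the log2 fold change was 0.88 (SE 0.19, edgeR adjusted p = 0.0005). After HFD the C-3BO mice reached 9362, 7335, 9297, 15438 and 12522 CPM against 5709, 5493, 7204, 12443 and 7787 CPM in controls. These groups overlapped, and the log2 fold change of 0.48 (SE 0.19, edgeR adjusted p = 0.0453) passed. The call was lost without HFD control replicate 1, 2, 3 or 5 or HFD C-3BO replicate 4 or 5, with values between 0.31 and 0.49. With all mice kept it was lost with library totals (edgeR adjusted p = 0.117) and without the low-count filter (edgeR adjusted p = 0.0746). Fitted on only the groups compared, the value did not pass either (edgeR adjusted p = 0.139). The difference in mean CPM did not pass (exact permutation test, two-sided, p = 0.135). The 2 C-3BO mice with the highest values were those with liver transcripts. With CL *Gpd1* rose by 0.73 (SE 0.19, edgeR adjusted p = 0.00756) on chow and by 0.80 (SE 0.19, edgeR adjusted p = 0.00195) on HFD. It was the most abundant of the 9 transcripts per kb in each group, and its group means differed by 1.87-fold at most. Exons of *Gpd1* share 384 bases with the antisense gene *Gm16537*.

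*Pck1* (chromosome 2, 172978574 to 172984754, plus strand, mm9) encodes cytosolic phosphoenolpyruvate carboxykinase, the entry to glyceroneogenesis in fat. It was 2798, 2594, 1403, 3272 and 2839 CPM in chow control mice and 7861, 5450.4, 6215, 7832 and 3798 CPM in chow C-3BO mice. Every C-3BO mouse was above every control, and the log2 fold change was 1.27 (SE 0.21, edgeR adjusted p = 1.34e-05). After HFD it was 5238, 5009, 6394, 6325 and 5361 CPM in controls and 7393, 11026, 8827, 6778 and 9119 CPM in C-3BO mice, again without overlap. The log2 fold change was 0.61 (SE 0.21, edgeR adjusted p = 0.0198), and the call was lost without HFD control replicate 1 or 2 or HFD C-3BO replicate 2, with values between 0.50 and 0.57. With library totals the value was 0.44 and did not pass. CL gave 0.21 on chow (95% interval -0.21 to 0.62, edgeR adjusted p = 0.548) and 0.41 on HFD (-0.01 to 0.82, edgeR adjusted p = 0.155), and neither passed. Fitted on only the groups compared, the HFD value was 0.39 and passed (edgeR adjusted p = 0.00604). All 5 HFD CL mice, at 5468 to 6520.1 CPM, were nevertheless above all 5 HFD saline mice, at 3944 to 5334 CPM (exact permutation test, two-sided, p = 0.00794, the smallest p that 5 against 5 mice allow). Chow saline mice had a wider spread, from 2647 to 6225 CPM, and a higher mean *Pck1* level, 4058 ± 1462 CPM, than chow control mice, 2581 ± 703 CPM (SD, n = 5).

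Both acyltransferases of the earlier steps rose in all 4 treatment comparisons. *Agpat2* (chromosome 2, 26448577 to 26459937, minus strand, mm9) encodes the enzyme that adds the next acyl group to lysophosphatidic acid and is mutated in a form of congenital generalised lipodystrophy. It was 784, 930.0, 1082, 723 and 1099 CPM in chow control mice and 2352, 3290.0, 3705, 2688 and 3511 CPM in chow C-3BO mice. After HFD it was 390.1, 378, 799, 1585 and 677 CPM in controls and 2749, 2203, 2397, 2847 and 2942 CPM in C-3BO mice. The lowest C-3BO mouse was above the highest control on each diet. The log2 fold changes were 1.75 (SE 0.25, edgeR adjusted p = 1.57e-06) and 1.78 (SE 0.25, edgeR adjusted p = 8.09e-07). In the injected cohort *Agpat2* was 573 to 942 CPM with saline and 1236 to 2524 CPM with CL on chow, and 429 to 727 CPM and 1556 to 2676 CPM on HFD. These groups did not overlap on either diet, and the log2 fold changes were 1.46 (SE 0.25, edgeR adjusted p = 7.62e-05) and 1.91 (SE 0.25, edgeR adjusted p = 5.97e-07). Exons of *Agpat2* share 64 bases with *Egfl7* on the opposite strand.

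*Gpam* (chromosome 19, 55144224 to 55173937, minus strand, mm9) encodes the mitochondrial glycerol-3-phosphate acyltransferase of the committed step. It was 224 to 294 CPM in chow control mice and 419 to 465 CPM in chow C-3BO mice. On HFD it was 161 to 277 CPM in control and 282 to 491 CPM in C-3BO mice, with the lowest C-3BO mouse just above the highest control. The log2 fold changes were 0.75 on chow (SE 0.16, edgeR adjusted p = 0.000355) and 0.89 on HFD (SE 0.16, edgeR adjusted p = 3.01e-05). With CL *Gpam* rose by 0.53 (SE 0.16, edgeR adjusted p = 0.0186) on chow, where chow CL replicate 5, at 337 CPM, lay among the saline mice. It rose by 0.77 (SE 0.16, edgeR adjusted p = 0.000476) on HFD, where all CL mice were above all saline mice. The call on chow was lost without chow saline replicate 1 or 3 or chow CL replicate 3 or 4, with values between 0.43 and 0.48. With library totals the value on chow was 0.38 and did not pass.

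The phosphatidic acid phosphatases passed in 1 of their 8 treatment tests. *Lpin1* (chromosome 12, 16542475 to 16596576, minus strand, mm9) encodes lipin 1, an enzyme that also acts as a transcriptional coregulator. It passed in none of the 8 comparisons of treatment or diet with edgeR and TMM factors. Its log2 fold changes lay between -0.06 and 0.23, and the 95% interval for C-3BO on chow was -0.11 to 0.50. With library totals it passed for HFD in control mice, at 0.39 (edgeR adjusted p = 0.0371). *Lpin2* (chromosome 17, 71533318 to 71599158, plus strand, mm9) encodes the related lipin 2 and was read from few counts. It rose in C-3BO mice on chow, from 14.5 to 18.7 CPM in controls to 19.2 to 27.9 CPM, a log2 fold change of 0.43 (SE 0.14, edgeR adjusted p = 0.0143). That call was lost without chow C-3BO replicate 2, which lowered the value to 0.35. With library totals the value was 0.23 and did not pass. In the other 3 treatment comparisons *Lpin2* gave values between 0.16 and 0.24 and did not pass.

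Of the acyltransferases of the last step, *Dgat1* rose in 3 treatment comparisons and *Dgat2* in 1. *Dgat1* (chromosome 15, 76332445 to 76342248, minus strand, mm9) encodes the DGAT that re-esterifies fatty acids released by lipolysis. It was 173 to 209 CPM in chow control mice and 288 to 312 CPM in chow C-3BO mice, and 118 to 226 CPM and 283 to 352 CPM on HFD. The groups did not overlap on either diet, and the log2 fold changes were 0.64 (SE 0.13, edgeR adjusted p = 0.000228) and 0.91 (SE 0.13, edgeR adjusted p = 1.07e-06). CL raised it by 0.62 (SE 0.13, edgeR adjusted p = 0.000632) on HFD, whereas on chow the value was 0.10 (95% interval -0.17 to 0.36, edgeR adjusted p = 0.674). *Dgat2* (chromosome 7, 106302173 to 106331223, minus strand, mm9) encodes the DGAT tied to newly made fatty acids and to lipid droplets. In C-3BO mice its values were 0.28 on chow (95% interval -0.09 to 0.65, edgeR adjusted p = 0.252) and 0.43 on HFD (0.06 to 0.80, edgeR adjusted p = 0.0653), and neither passed. The HFD value passed with only the groups compared in the fit (0.42, edgeR adjusted p = 0.0481) and, at 0.51, without HFD control replicate 4 or 5 or HFD C-3BO replicate 2. Mean *Dgat2* CPM was higher in C-3BO than in control mice on each diet, with overlapping groups (exact permutation tests, two-sided, unadjusted p = 0.0317 for each). CL raised *Dgat2* by 0.80 (SE 0.18, edgeR adjusted p = 0.00139) on HFD, from 2715 to 3481 CPM with saline to 4845 to 5760 CPM. On chow the value was 0.47 (0.10 to 0.84, edgeR adjusted p = 0.0721), and replicate 5 of the CL mice was at 1919 CPM while the other 4 were at 3909 to 4744 CPM. Without that mouse the chow value was 0.65 and passed, as it did without chow saline replicate 5, at 0.67.

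*Gyk* was the member that rose with HFD in all 4 diet comparisons. In control mice, HFD raised 4 of the 9 transcripts and lowered none, against 15.4% of tested genes called higher and 17.5% lower. *Gyk* rose by 1.46 (SE 0.33, edgeR adjusted p = 0.000686), *Pck1* by 1.13 (SE 0.21, edgeR adjusted p = 4.92e-05), *Dgat2* by 0.69 (SE 0.18, edgeR adjusted p = 0.00323) and *Lpin2* by 0.37 (SE 0.13, edgeR adjusted p = 0.0292). The *Gyk* groups overlapped, as HFD control replicate 2, at 53.9 CPM, lay within the chow range, and the *Lpin2* call was lost without chow control replicate 3 or 4 or HFD control replicate 3 or 4. The summed level of 12 muscle genes was lower in every HFD control mouse than in every chow control mouse, and that of the endothelial genes was higher, at 1458 to 1963 CPM against 771 to 1209 CPM. Their part in these results was not tested. In C-3BO mice, HFD raised *Gyk* by 1.81 (SE 0.33, edgeR adjusted p = 9.71e-05) and *Dgat2* by 0.84 (SE 0.18, edgeR adjusted p = 0.000757), 2 of the 9, against 13.5% of tested genes higher and 12.2% lower. Without replicates 4 and 5 of HFD C-3BO these values were 1.64 and 0.79, and both calls were kept. *Gpd1* moved from -0.24 to -0.55 without them (edgeR adjusted p = 0.062), and the other 3 HFD C-3BO mice lay below all 5 chow C-3BO mice. Marker lists also separated chow from HFD in C-3BO mice. On HFD the summed brown adipocyte genes were higher, at 30161 to 34581 CPM against 20083 to 29061 CPM, as were the endothelial genes, at 1186 to 1398 CPM against 495 to 977 CPM. Within the brown sum, mean *Ucp1* was 14019 CPM on HFD and 6433 CPM on chow. *Adipoq*, *Plin1* and *Ppargc1a* had lower means on HFD, and the other genes of that list had higher ones. The muscle genes were lower, at 7.45 to 90.1 CPM against 481 to 4621 CPM, and the part of these lists was not tested.

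In the injected cohort, HFD raised *Gyk* and lowered *Gpam* under both injections. With saline *Gyk* rose by 1.28 (SE 0.33, edgeR adjusted p = 0.00741), and *Gpam* fell by 0.72 (SE 0.16, edgeR adjusted p = 0.00196), where 7.45% of tested genes were called higher and 8.04% lower. All HFD saline mice, at 145 to 268 CPM of *Gpam*, were below all chow saline mice, at 300.1 to 426 CPM. With CL *Gyk* rose by 1.95 (SE 0.33, edgeR adjusted p = 4.93e-05), and *Gpam* fell by 0.48 (SE 0.16, edgeR adjusted p = 0.0241), against 10.9% of tested genes higher and 12.7% lower. *Gpam* in CL mice lost its call without chow CL replicate 3 or 4 or HFD CL replicate 1, with values between -0.43 and -0.38. Library totals gave -0.30 for it, which did not pass. In the C-3BO cohort *Gpam* gave -0.25 in control and -0.11 in C-3BO mice and did not pass. All HFD libraries of the injected cohort held liver transcripts and all chow libraries had *Alb* at or under 1.01 CPM. Liver expresses genes of this pathway, *Gyk*, *Gpam*, *Pck1* and *Dgat2* among them, and the liver level of no member was measured here. In this cohort the part of liver transcripts in any member cannot be told apart from the diet. Endothelial genes summed to 859 to 1087 CPM on chow and 1183 to 1289.6 CPM on HFD with saline, and 811 to 1100.2 CPM and 1314 to 1856 CPM with CL. That of macrophage genes with saline was 149 to 325 CPM on chow and 333 to 764 CPM on HFD. These 3 pairs of ranges did not overlap, and their part in the results was not tested. The comparisons of the C-3BO cohort rest on libraries without *Alb* above 1.62 CPM, apart from replicates 4 and 5 of HFD C-3BO. With TMM factors and all mice in the fit, the diet values of *Gpd1*, *Agpat2*, *Lpin1* and *Dgat1* lay between -0.48 and 0.23 and did not pass. Mean CPM of *Lpin1* was higher on HFD in control mice (exact permutation test, two-sided, unadjusted p = 0.0476). In saline mice *Agpat2* and *Dgat1* were lower on HFD (exact permutation tests, two-sided, unadjusted p = 0.0476 and 0.0238). The other diet comparisons of these genes gave p above 0.05 in that test. *Pck1*, *Lpin2* and *Dgat2* did not pass outside the comparisons named, where *Pck1* in C-3BO mice had the highest value, 0.47. Calls gained with library totals included *Lpin1* in control mice, at 0.39, and *Dgat1* in CL mice, at 0.34.

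**Figure D3:**
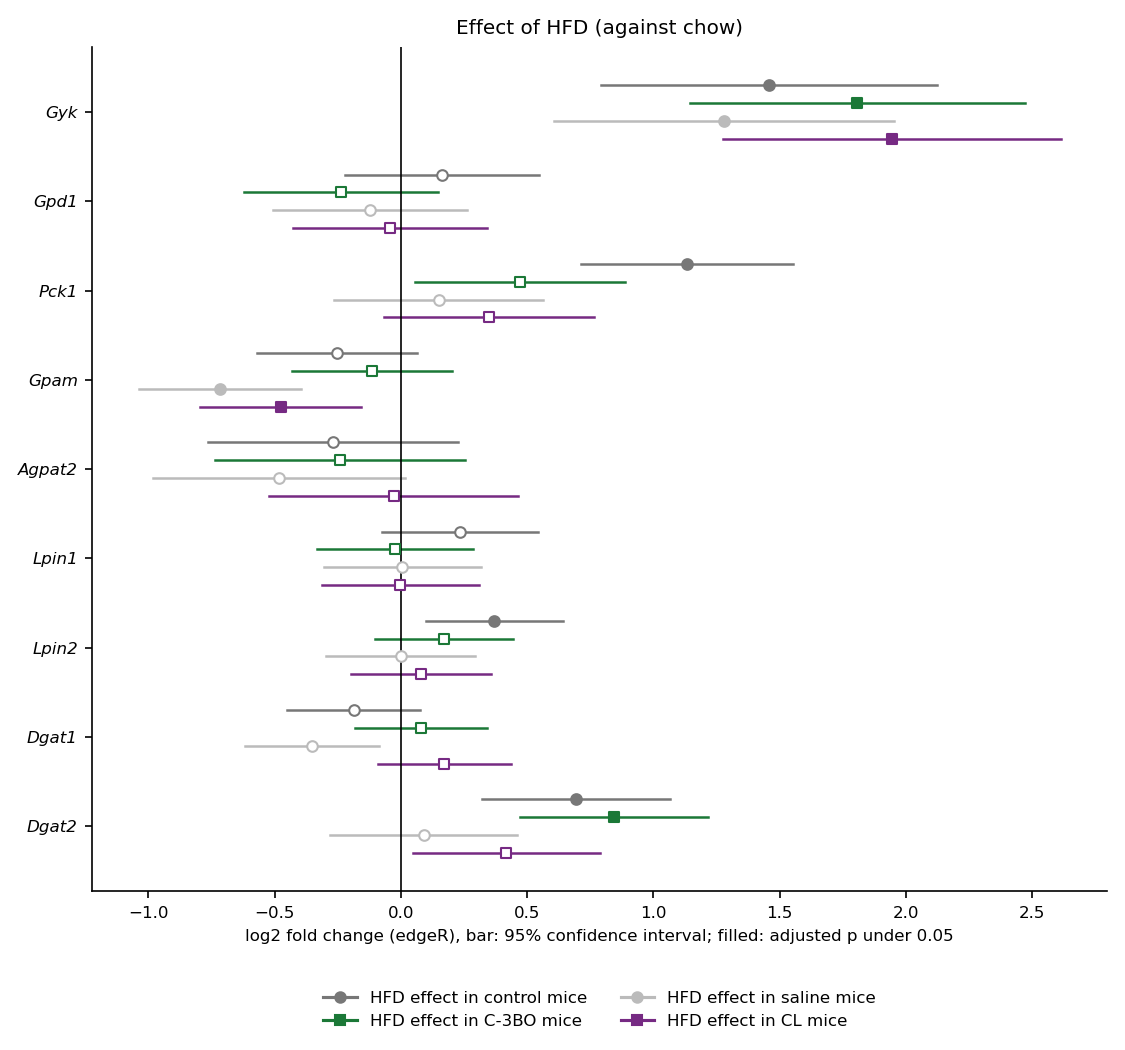
Log2 fold changes of the 9 transcripts in HFD against chow mice within control, C-3BO, saline and CL mice, with 95% confidence intervals from edgeR and filled symbols for an adjusted p under 0.05. *Gyk* lies between 1.28 and 1.95 with filled symbols in all 4 groups, and *Gpam* lies below 0 in each, at -0.72 and -0.48 with filled symbols in saline and CL mice.

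Whether the treatment effects depended on diet, or differed between C-3BO and CL, was tested on the differences themselves. No member passed for the diet dependence of the C-3BO effect with edgeR or DESeq2, where 2.08% of tested genes passed, and 1 member had an unadjusted p under 0.05 in each tool. That member in edgeR was *Pck1*, at -0.66 (95% interval -1.25 to -0.08, edgeR adjusted p = 0.252). For CL no member passed with either tool, with 0.0151% of tested genes passing, and 1 had an unadjusted p under 0.05 in each tool. In edgeR it was *Dgat1*, at 0.52 (0.15 to 0.90, edgeR adjusted p = 0.356). For *Gyk* the differences between diets were 0.35 (-0.57 to 1.27) for C-3BO and 0.66 (-0.26 to 1.59) for CL, intervals that include both no difference and a sizeable one. On chow, *Pck1* responded more to C-3BO than to CL, by 1.06 on the log2 scale (SE 0.29, edgeR adjusted p = 0.0222), and was the 1 member that passed, against 6.24% of tested genes. The call was lost without chow C-3BO replicate 4, chow saline replicate 5 or chow CL replicate 5. That CL mouse had *Ucp1* at 1644.5 CPM, within the range of chow saline mice. The cohorts also differed in age and in handling. On HFD no member passed the difference between C-3BO and CL with edgeR or DESeq2, none had an unadjusted p under 0.05 in either, and 1.80% of tested genes passed. *Agpat2*, for which the C-3BO and CL effects lay within 0.29 of each other on chow, had intervals of -0.41 to 0.99 on chow and -0.84 to 0.57 on HFD for that difference.

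The balance between isoenzymes, and between *Gyk*, *Gpd1* and *Pck1*, which encode different enzymes, was read within each library. It is given as the share of counts per kb of exon. *Dgat2* made up 88.8% to 94.98% of the summed *Dgat1* and *Dgat2* level in the 8 groups. In chow C-3BO mice its share was 88.8% ± 0.935 against 91.1% ± 0.575 in chow control mice (SD, n = 5), and every C-3BO mouse lay below every control (exact permutation test, two-sided, p = 0.00794, adjusted over 24 tests 0.019). On HFD the share was higher than on chow in 3 of the 4 diet comparisons. It was 94.98% ± 0.970 in HFD control mice, 93.0% ± 1.16 in HFD C-3BO mice and 93.7% ± 0.389 in HFD saline mice (SD, n = 5), each without overlap with its chow group (exact permutation tests, two-sided, adjusted p = 0.019 for each). HFD in CL mice gave a difference of 1.35 points with overlapping groups and did not pass (exact permutation test, two-sided, adjusted p = 0.163). Neither did C-3BO on HFD, at -1.99 points with overlap (exact permutation test, two-sided, adjusted p = 0.0693), although it passed without HFD control replicate 3. With CL the differences were 1.91 points on chow and 0.684 points on HFD and did not pass. *Gyk* made up between 0.280% and 1.6% of the summed *Gyk*, *Gpd1* and *Pck1* level. Its share rose from 0.348% ± 0.0268 to 0.477% ± 0.103 with C-3BO on chow, from 0.605% ± 0.353 to 1.6% ± 0.233 with C-3BO on HFD, and from 0.638% ± 0.223 to 1.38% ± 0.350 with CL on HFD (SD, n = 5, exact permutation tests, two-sided, adjusted p = 0.019 for each). It also rose with HFD in C-3BO, saline and CL mice, by 1.12, 0.358 and 1.0 points (exact permutation tests, two-sided, adjusted p = 0.019 for each). For HFD in control mice the *Gyk* share differed by 0.257 points with overlapping groups, which did not pass (exact permutation test, two-sided, adjusted p = 0.303). CL on chow gave 0.0953 points (exact permutation test, two-sided, adjusted p = 0.117), also with overlap, which did not pass either. Without replicates 4 and 5 of HFD C-3BO the difference on HFD was 0.947 points and did not pass. The *Gyk* share also lost its call for C-3BO on chow without chow control replicate 1 or 4, and for HFD in saline mice with each chow saline mouse left out in turn, as the *Dgat2* share did with each HFD saline mouse left out in turn. Fewer mice raise the smallest p that these tests allow. *Lpin1* held 97.2% to 98.0% of the summed lipin level, and none of its 8 comparisons passed.

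**Figure D4:**
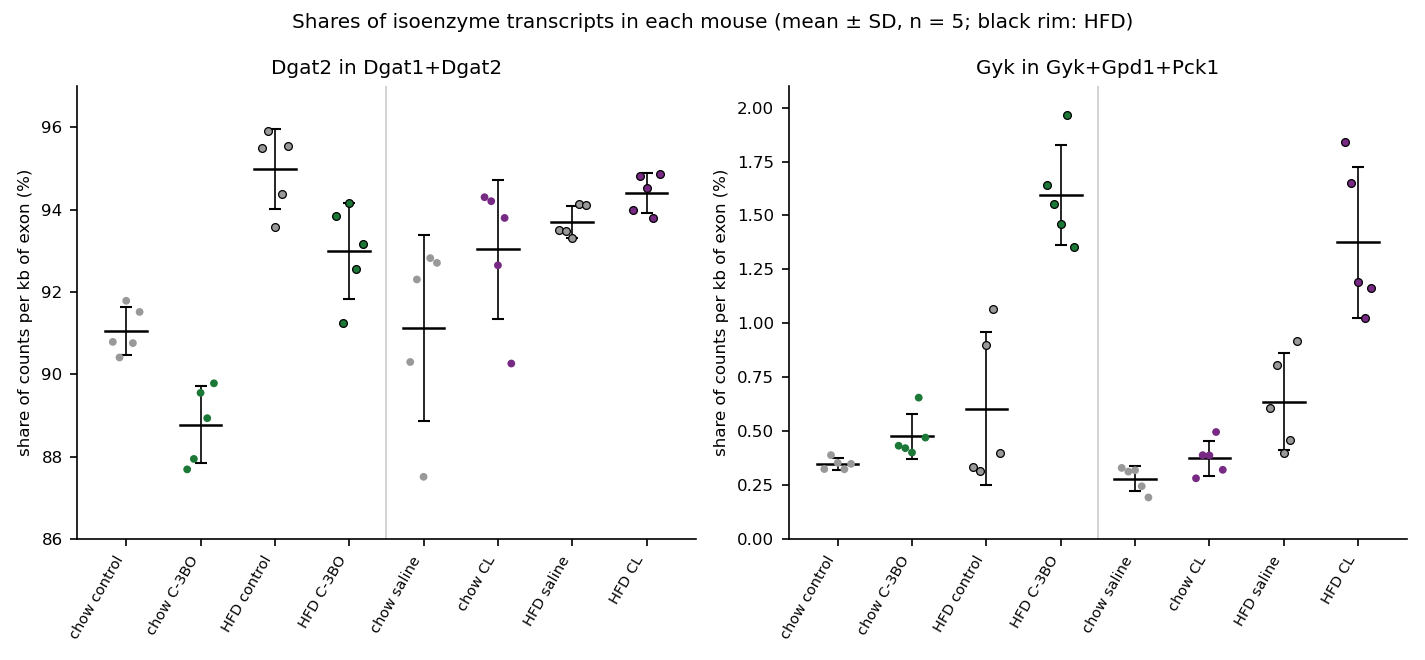
Share of *Dgat2* in the summed *Dgat1* and *Dgat2* level and of *Gyk* in the summed *Gyk*, *Gpd1* and *Pck1* level of each mouse, in percent of counts per kb of exon, with the mean and SD of 5 mice per group. The axis for *Dgat2* does not start at 0. The *Dgat2* share is lowest in chow C-3BO mice at 88.8%, and the *Gyk* share is highest in HFD C-3BO mice at 1.6%.

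The order of the 8 groups differed between members. *Gyk* rose from chow saline (50.01 CPM) and chow control (52.5 CPM) through chow CL (102 CPM), HFD saline (120 CPM), HFD control (144 CPM) and chow C-3BO (145 CPM) to HFD CL (394 CPM) and HFD C-3BO (507 CPM). Among the 7 neighbouring pairs in that order, only chow C-3BO and HFD CL did not overlap. The group means of *Agpat2* fell into an untreated and a treated range. All 4 control or saline means lay between 526 and 924 CPM, and all 4 C-3BO or CL means lay between 1987 and 3109 CPM, with no overlap between chow control and HFD CL, the neighbours at that gap. Single mice crossed it, as HFD control replicate 4, at 1585 CPM, lay above HFD CL replicate 5, at 1556 CPM, and chow CL replicate 5, at 1236 CPM. *Pck1* was lowest in chow control mice (2581 CPM) and highest in HFD C-3BO mice (8629 CPM), and each of its 7 neighbouring pairs overlapped. For *Gpd1*, *Lpin1*, *Lpin2* and *Dgat2* all neighbours overlapped as well.

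Likeness to the 3 members with the widest ranges was measured as the root mean square distance between centred log2 CPM means over the 8 groups, which is a description of these groups and shares their libraries. The genes nearest to *Gyk* were *Nnmt* at a distance of 0.373, *Lppr4* at 0.406 and *Ucp1* at 0.418. *Nnmt* encodes nicotinamide N-methyltransferase and rose from 14.1 CPM in chow control to 120 CPM in HFD C-3BO mice. *Agpat2* was closest to *Ak4*, an adenylate kinase, at 0.117, then *Lyplal1* at 0.204 and the potassium channel gene *Kcnk2* at 0.209. *Pck1* was closest to *Tbc1d20* at 0.158, *Cidec* at 0.162 and *Acsl1* at 0.163. *Cidec* encodes a lipid droplet protein and *Acsl1* an acyl-CoA synthetase. No other member was among the 3 nearest genes, the nearest being *Dgat2* to *Pck1* at 0.289.

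Other genes of the pathway were called in both directions. Of 31 further genes of glycerol transport, glycerol-3-phosphate metabolism and glycerolipid synthesis, 28 could be tested and *Aqp3*, *Gpat2* and *Gykl1* could not. In C-3BO mice 7 rose and 4 fell on chow, against 15.8% and 15.9% of all tested genes, and 9 rose and 4 fell on HFD, against 19.3% and 15.5%. With CL 8 rose and 3 fell on chow, against 9.16% and 6.13%, and 6 rose and 2 fell on HFD, against 12.7% and 10.8%. Nothing particular to the list is read from these counts. Their median log2 fold changes were 0.00, 0.23, 0.20 and 0.22 in the same order, against -0.03, -0.02, -0.01 and -0.01 for all tested genes. *Mogat1*, an acyltransferase that makes diacylglycerol from monoacylglycerol, rose in all 4 comparisons, by 1.29 and 2.48 with C-3BO and by 1.39 and 2.36 with CL on chow and HFD. It reached 23.1 ± 1.91 CPM in HFD C-3BO and 4.07 ± 1.81 CPM in HFD control mice (SD, n = 5). *Got2*, the mitochondrial aspartate aminotransferase of the malate-aspartate shuttle, fell in all 4, with log2 fold changes of -2.24 and -2.34 for C-3BO and -0.86 and -1.72 for CL. Its level was 53.5 ± 9.65 CPM in chow control and 11.3 ± 4.58 CPM in chow C-3BO mice (SD, n = 5). *Aqp7*, the channel through which glycerol leaves adipocytes, also fell in all 4, with -0.36 and -0.77 for C-3BO and -0.62 and -0.89 for CL on the log2 scale.

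*Bscl2*, which encodes the protein seipin, rose by 1.07 and 0.87 with C-3BO and by 0.92 with CL on HFD, while its value of 0.41 with CL on chow did not pass. *Mdh2*, mitochondrial malate dehydrogenase, rose by 0.69 with C-3BO on HFD and by 0.43 and 0.64 with CL, and gave 0.04 with C-3BO on chow, which did not pass. *Agpat1*, another acyltransferase of the *Agpat2* step, rose by 0.31 and 0.46 with C-3BO and by 0.34 with CL on HFD, and its value of 0.18 with CL on chow did not pass. All these calls used edgeR's adjusted p over 13277 genes.

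**Figure D5:**
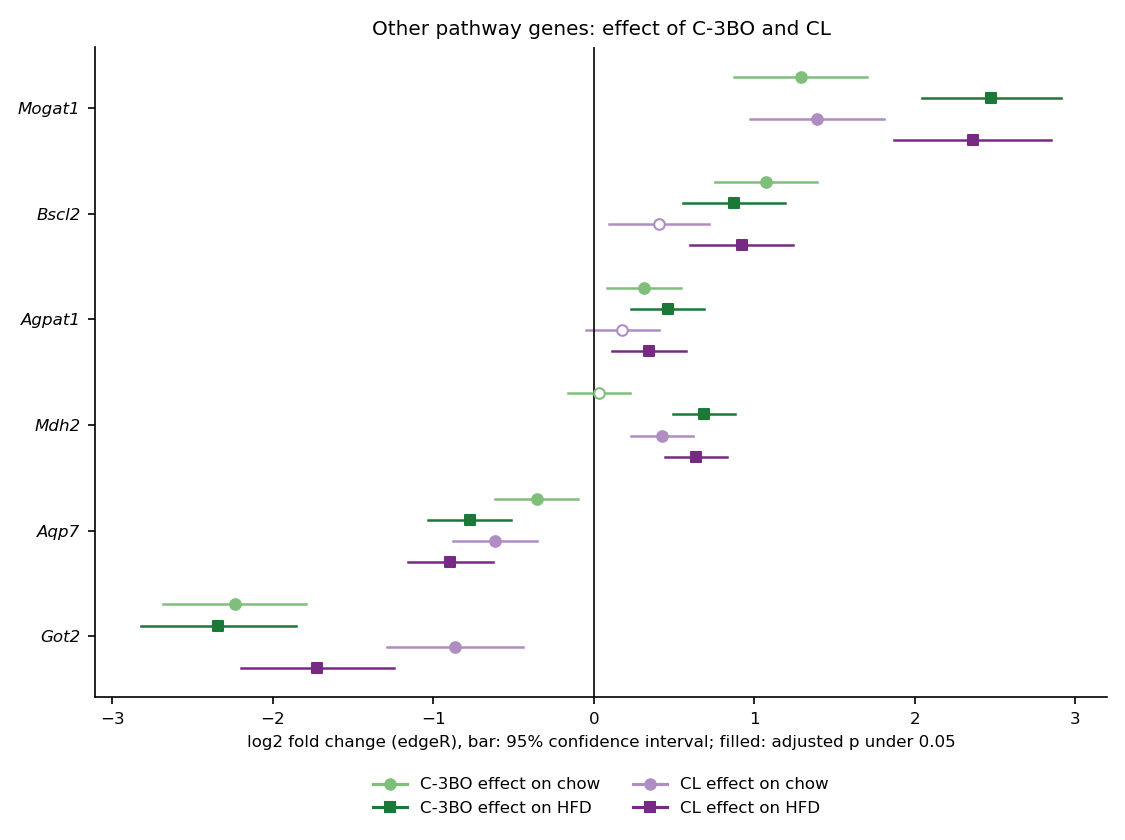
Log2 fold changes of the 6 further pathway genes that passed in the most treatment comparisons, with 95% confidence intervals from edgeR and filled symbols for an adjusted p under 0.05. *Mogat1* lies between 1.29 and 2.48 and *Got2* between -2.34 and -0.86, and *Aqp7* lies below 0 in all 4 comparisons.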

How the data were processed

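The authors isolated poly(A) RNA from 40 BAT samples, prepared TruSeq libraries, sequenced them on a HiSeq 1500, aligned them (STAR, mm9), turned the alignments into HOMER tag directories and used iRNA-seq to count exon reads of each RefSeq gene. The deposited table holds raw counts per gene and mouse, without normalization. Versions and strand settings are not given in the sources used here, and the exon length column was used for levels per kb.

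Genes were kept with filterByExpr of edgeR 4.0.16 (minimum count 10, 13277 of 20295 genes), scaled by TMM and fitted with 1 mean per group over all 40 libraries. Quasi-likelihood tests were adjusted by Benjamini and Hochberg, and an SE is the log2 fold change divided by the square root of F. Alternatives were DESeq2 1.42.0, library totals, RLE factors, other filters, fewer samples, a replicate block, left-out mice and a log2 fold limit of 1. The count tests and the exact permutation tests were tested on simulated data. Groups came from the labels. Named pathway genes are the 6 that passed in the most treatment comparisons, ties going to the larger mean absolute log2 fold change. The members and lists were chosen with earlier results of these data known. R 4.3.3 and Python 3.11.15 were used. Counting precision is limited by depth, with 3 counts as the smallest level read, and p-values cover the spread between mice.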

Additional observations from a re-analysis of the deposited data

Results flagged for a closer look

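Within groups of 5 mice, the highest or lowest mouse was checked against the others by Dixon's criterion in 72 groups, of which chance flags about 1 in 20. *Gyk* stood apart in chow C-3BO replicate 4 at 206 CPM (the others 122 to 133), in HFD C-3BO replicate 4 at 708 CPM (432 to 476) and in chow saline replicate 1 at 62.4 CPM (45.2 to 49.9). *Gpd1* was low in chow CL replicate 5 at 6851 CPM (12439 to 14058) and high in HFD saline replicate 5 at 8981 CPM (5940.5 to 6719). *Lpin2* was low in HFD saline replicate 4 at 9.02 CPM (19.2 to 21.1), the library with 849126 counts in all. Between the cohorts, the *Pck1* effect of C-3BO on chow exceeded that of CL by 1.06 on the log2 scale (edgeR adjusted p = 0.0222).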

How the results depend on the processing

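Of the 23 treatment effects of members that passed, 18 passed under every alternative run other than the fold limit, and the exceptions were *Lpin2* with C-3BO on chow, *Gpd1* and *Pck1* with C-3BO on HFD, and *Gyk* and *Gpam* with CL on chow. With a log2 fold limit of 1, 3 and 2 members remained called for C-3BO on chow and HFD, 2 and 2 for CL, and 2, 1, 1 and 1 for HFD in control, C-3BO, saline and CL mice. Library totals in place of TMM shifted the median of all genes by -0.20 to -0.14 for treatments and by 0.15 to 0.18 for HFD, called 4 members for HFD in C-3BO mice, and turned *Dgat1* with CL on chow to -0.042 and *Gpam* with HFD in C-3BO mice to 0.0603. Calls lost with library totals were *Lpin2* with C-3BO on chow and *Gpd1* and *Pck1* with C-3BO on HFD (edgeR adjusted p = 0.187, 0.117 and 0.0792). *Gpam* lost its calls with CL on chow and with HFD in CL mice (edgeR adjusted p = 0.0644 and 0.133). Calls gained included *Pck1* with CL and *Dgat2* with C-3BO, both on HFD with only the groups compared. *Dgat2* with C-3BO on HFD and with CL on chow gained calls without single mice. With library totals, gained calls included *Pck1* and *Lpin2* with HFD in C-3BO mice and *Dgat2* with HFD in CL mice. Others were *Lpin1* with HFD in control mice (0.39, edgeR adjusted p = 0.0371) and *Dgat1* with HFD in CL mice (0.34, edgeR adjusted p = 0.0254). The *Gyk* share with CL on chow passed without chow CL replicate 1. DESeq2 called 2 members for the C-3BO minus CL difference on chow. The *Lpin2* value for HFD in saline mice, near 0, became 0.0242 with DESeq2, 0.166 with library totals, 0.0122 with RLE factors and 0.0009 with only the groups compared. Leaving out single mice gave 2 to 5 members called for CL on chow (2 without chow saline replicate 3 or chow CL replicate 3 or 4), 1 to 2 for HFD in CL mice and 0 to 2 for the C-3BO minus CL difference on chow. Values that changed sign when a mouse was left out were *Lpin1* with C-3BO on HFD (-0.181 to 0.0628), *Lpin2* with HFD in saline (-0.0423 to 0.0838) and CL mice (-0.0159 to 0.201), and *Dgat2* with HFD in saline mice (-0.0522 to 0.288). So did the *Lpin1* share, in points, for CL on chow (-0.0985 to 0.303) and HFD (-0.400 to 0.00118) and for HFD in control (-0.369 to 0.0358), C-3BO (-0.630 to 0.0287), saline (-0.0813 to 0.226) and CL mice (-0.415 to 0.112). The cause of these changes was not tested beyond the fewer mice or the scaling itself.

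In no comparison were the deviations of all 5 same-numbered pairs correlated above 0.1, so the numbers were not taken to pair the mice. The highest mean correlation was that for C-3BO on chow, 0.172 (-0.0366 to 0.444), with 3 of 5 pairs over 0.1 and 3 of 5 mice closest to their own number. With replicate number as a block, 7 and 6 members were called for C-3BO and 4 and 6 for CL on chow and HFD, as without it. The depth limits *Lpin2* most, with 9 counts in its lowest library.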
